A study of Mus musculus with 63 samples.

Results

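RNA of neural stem cells was compared with RNA of basal progenitors from the dorsal cerebral cortex of Ski knock-out mouse embryos on the embryonic day labelled E14.5, over all genes measured. The comparison took every library of these 2 cell types on that day, which were 4 libraries of neural stem cells (NSC 1 to NSC 4) and 6 of basal progenitors (BP 1 to BP 6), 10 of the 63 libraries of the series. NSCs were GFP-positive cells sorted from embryos carrying Hes5::GFP, and BPs were GFP-positive cells sorted from embryos carrying Tbr2::GFP. Both groups were of strain C57Bl/6, carried the Ski knock-out and were labelled female, and the labels do not state which part of Ski is deleted. All groups of the series carry the knock-out and no wild type library was analysed here, so the values compare cell types within the knock-out and hold no comparison of Ski genotypes. The Tbr2::GFP embryos were the source of BPs and of newborn neurons alike, and the sources used here do not say how the sort separated them. Cell type and reporter line cannot be told apart. Nothing in the labels says that the libraries of a group came from separate embryos, so p-values measure the spread between these libraries, which may be technical. In such bulk samples, fewer cells of a type and less RNA per cell cannot be told apart.

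In the developing cortex, neural stem cells, also called radial glia, line the ventricle and are kept as stem cells in large part by Notch signalling. Ligands on neighbouring cells activate Notch receptors, whose cleaved inner part joins the DNA-binding protein RBPJ and turns on Hes1 and Hes5, repressors of the proneural genes that drive neurogenesis. Stem cells give rise to basal progenitors, which turn on Eomes (the gene of Tbr2), leave the ventricular surface and mostly divide into neurons. Ski is a co-repressor that acts with Smad proteins and histone deacetylase complexes.

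Levels are in TPM (a transcript abundance corrected for transcript length and scaled to the same total in every library), and differences are NSC minus BP on the log2(TPM + 1) scale ± SE, which understates the change of genes with low levels. Read counts were not analysed here, so the depth per library is unknown. Between 17178 and 19714 of the 23078 genes of the table were above 0 TPM in a library. Called genes had an adjusted p (limma, Benjamini-Hochberg over all genes tested) under 0.05 and a log2 difference of at least 1 in size.

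The libraries of each side were not alike, and the NSC side was the more uneven. Pearson correlations across genes of log2(TPM + 1) were 0.939 to 0.990 between NSC libraries, 0.961 to 0.996 between BP libraries and 0.920 to 0.976 across the sides. NSC 2 was closest to a BP library, BP 2 (r = 0.976), and only then to its closest NSC library (r = 0.966). The first 2 principal components carried 39.8% and 37.8% of the variance. All 4 NSC libraries lay on one side of the first component and all 6 BP libraries on the other, while NSC 2, BP 2, BP 3 and BP 4 lay together at one end of the second. These 4 libraries shared the positive side of the main axis of spread within the sides (59.0% of that spread), at scores of 53.02, 40.1, 22.3 and 13.9. NSC 1 stood apart on the next axis (20.4%), at 42.9. NSC 2 also had the highest summed TPM of ribosomal protein genes (106911, against 55017 to 81963 in the other 9 libraries) and the most negative rank correlation of level with transcript length (-0.241, against -0.133 to -0.210). The part of these measures in the results was not tested. Values without the 4 libraries are given below for the counts over all genes and for the lists whose count they moved by over 1.5 times.

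**Figure D1:**
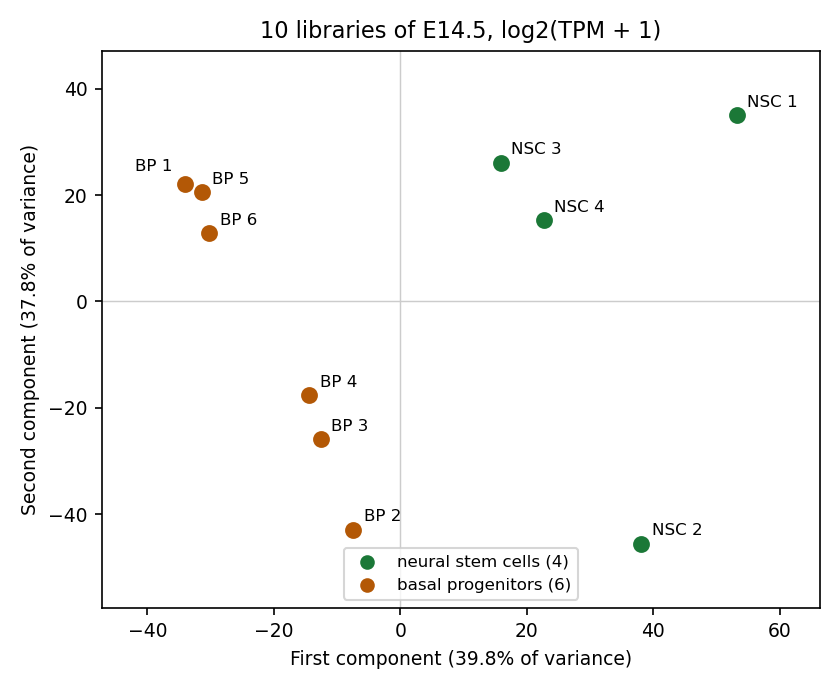
The 10 libraries at E14.5 on the first 2 principal components of log2(TPM + 1) over 13478 genes, with the percent of variance on each axis. NSC libraries and BP libraries are separated along the first component (39.8%), and NSC 2, BP 2, BP 3 and BP 4 lie apart from the other 6 along the second (37.8%).

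The label female did not hold for all libraries by their transcripts. Xist, the RNA of the inactive X chromosome, was at least 10 TPM with Y-linked genes below 10 TPM in 1 NSC library (NSC 3) and in 4 BP libraries (BP 1, BP 4, BP 5 and BP 6). Y-linked genes were at least 10 TPM in sum with Xist below 10 TPM in 2 NSC libraries (NSC 1 and NSC 2) and in 2 BP libraries (BP 2 and BP 3). NSC 4 had both, with Xist at 16.04 TPM and 110 TPM in sum over 4 Y-linked genes. Both sides held libraries of either kind, and BP 2 and BP 3, which lay with NSC 2, had Y-linked transcripts as NSC 2 did. BP 4 lay with NSC 2 too, but had Xist at 160 TPM and 1.05 TPM in sum over the Y-linked genes. NSC 1 and NSC 4, with sums of 160 and 110 TPM, lay on the other side of the second component from NSC 2.

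The defining markers fitted the NSC label, and those of basal progenitors did not separate the sides. Sox2, Hes1, Slc1a3, Fabp7, Vim, Nes and Pax6 were above every BP library in every NSC library, for example Fabp7, a fatty acid binding protein of radial glia, at 770, 441, 426 and 373 TPM in NSC 1 to NSC 4 against 86.5 to 149 TPM in BPs. The progenitor markers Eomes, Neurog2, Neurod1, Insm1 and Mfap4 were high on both sides and overlapped. Eomes, whose reporter sorted the BPs, stood at 608, 267, 302 and 414 TPM in NSC 1 to NSC 4, against a lowest, median and highest BP value of 294, 364 and 422 TPM. The NSC values lay on both sides of the BP range (difference 0.07 ± 0.20, adjusted p = 0.87), and without NSC 1 the difference was -0.15. Neuronal markers were abundant in all 10 libraries, and Tubb3, Dcx and Neurod6 overlapped between the sides. Stmn2 and Tbr1 were higher in every BP library than in any NSC library. Stmn2 was at most 498 TPM in NSCs and at least 571 TPM in BPs, and Tbr1 at most 324 and at least 404 TPM. Neither was called (-1.01, adjusted p = 0.088, and -0.98, adjusted p = 0.018). Tubb3, a neuronal tubulin, was at 974, 2382, 2082 and 1694 TPM in NSC 1 to NSC 4 and 2140 to 2697 TPM in BPs. NSC 1 had the least Tubb3 and the most Eomes of the 10 libraries.

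Ski itself was present on both sides, at 30.7, 26.6, 42.7 and 37.9 TPM in NSC 1 to NSC 4 and at 22.4, 28.7 and 29.1 TPM as the lowest, median and highest BP value. NSC 1, NSC 3 and NSC 4 were above all BP libraries and NSC 2 was within them, with a difference of 0.30 ± 0.14 (adjusted p = 0.19) that was 0.19 without NSC 3. Since the deleted part is not stated, these levels do not check the knock-out. Of 20 genes of the Ski list (Ski, its partners and the Smads), 1 was called, beside 3.78% of all genes tested, and that gene was Smad3, a transducer of TGF-beta signals, at 25.2, 22.6, 17.51 and 20.5 TPM in NSCs against 5.08 to 6.89 TPM in BPs (1.70 ± 0.13, adjusted p = 2.2e-05).

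Across all genes the differences ran mostly towards the stem cells. Of 13478 genes tested, 480 (3.56%) were called higher in NSCs and 29 (0.215%) higher in BPs, 3.78% in either direction, while the median difference of all genes was -0.01. At an adjusted p under 0.05 and any size there were 1242 genes higher in NSCs and 338 higher in BPs. All 4 NSC libraries were above all 6 BP libraries for 1331 genes (9.88%) and below them for 593 (4.4%), and 479 of the 509 called genes were among these. The filter on low values asked for 1 TPM in 4 libraries. A gene that reached it in the 4 NSC libraries alone could not overlap, so for such genes the filter fixed that outcome. How many of the genes were of this kind was not counted. Without NSC 2, BP 2, BP 3 and BP 4 the counts were 565 and 91. The count higher in NSCs lay between 367 (without NSC 1) and 640 (without NSC 2) when any 1 library was left out. The count higher in BPs was far less steady, at 95 without NSC 3, 44 without NSC 2, 11 without BP 1 and 7 without BP 5 or without BP 6. Counts of the gene lists below stand beside 3.56% and 0.215% of all genes called higher in NSCs and in BPs. Counts at an unadjusted p under 0.05 do not, since no share of all genes was counted at that level.

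**Figure D2:**
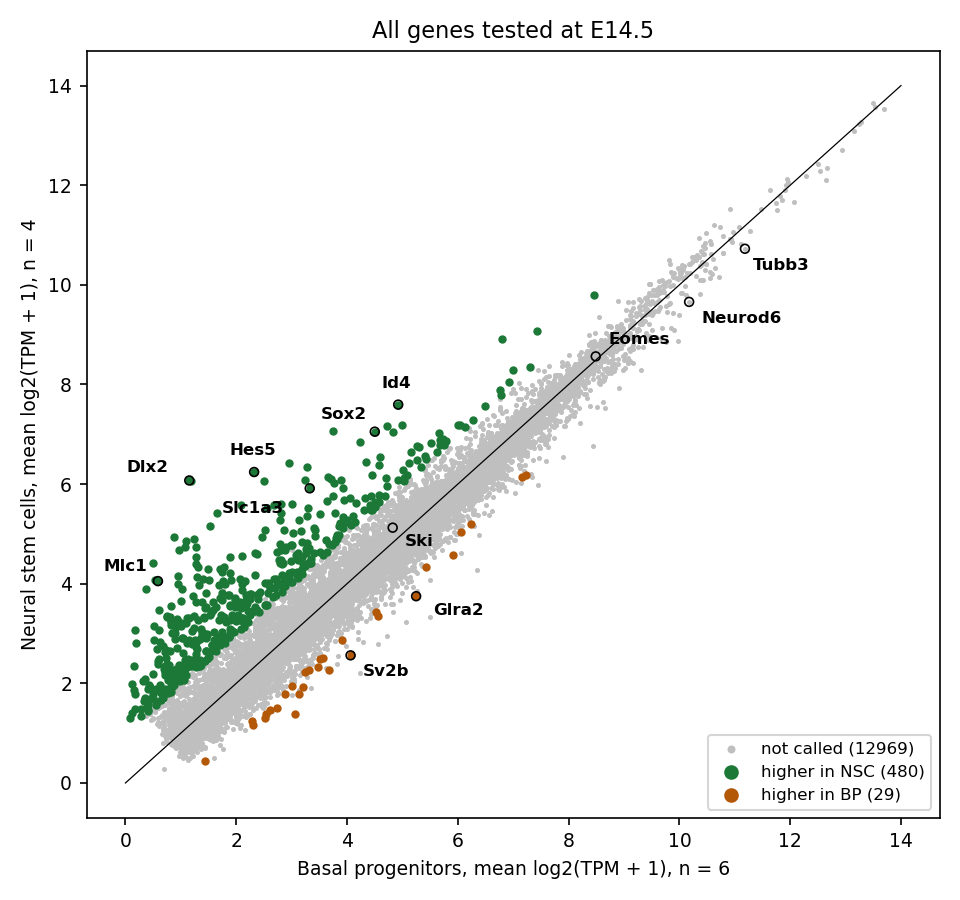
Mean log2(TPM + 1) of each of 13478 genes in BP (horizontal) against NSC (vertical) at E14.5, with genes called higher in NSC, genes called higher in BP and the other genes in separate colours. The 480 called genes above the diagonal are 94.3% of the called genes, and many of them are near 0 in BPs.

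In the Notch pathway, the receptors Notch1, Notch2 and Notch3, the modifier Lfng and most of the targets were higher in NSCs. Of 21 ligands, receptors and modifiers, 4 were called higher in NSCs and 0 in BPs, with a median difference of 0.20 beside -0.01 for all genes. That median was 0.06 without BP 1, 0.092 without NSC 4 and 0.096 without NSC 1, and 1 member was called higher in BPs without NSC 3. Of 10 target genes tested (11 in the table), 8 were called higher in NSCs and 0 in BPs, with a median of 2.08. Hes5, whose reporter sorted the NSCs, is among these 8 and enters the median and the list means. The mean log2 level of the targets was 4.97, 4.33, 4.32 and 4.46 in NSC 1 to NSC 4 and 2.61 to 2.96 in BPs.

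Hes5 and Lfng, both called, are shown by sequence because each holds a pair of the letters TGGGAA, the core bound by RBPJ, before its start. Hes5 is the gene whose reporter sorted the NSCs, so its level is a check of the sort and no finding. Lfng encodes a sugar transferase that modifies Notch receptors. The windows are the 250 bases before the annotated start, from RefSeq (GRCm38.p6), chr4:154960673-154960922 for Hes5 and chr5:140607091-140607340 for Lfng, both on the plus strand. Capitals mark TGGGAA on the printed strand and TTCCCA, its reverse complement.
Hes5: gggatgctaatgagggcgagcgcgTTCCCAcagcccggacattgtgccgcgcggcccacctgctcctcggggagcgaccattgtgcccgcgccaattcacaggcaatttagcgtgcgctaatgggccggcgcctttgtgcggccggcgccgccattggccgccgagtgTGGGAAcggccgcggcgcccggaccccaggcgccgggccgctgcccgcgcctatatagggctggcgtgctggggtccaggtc
Lfng: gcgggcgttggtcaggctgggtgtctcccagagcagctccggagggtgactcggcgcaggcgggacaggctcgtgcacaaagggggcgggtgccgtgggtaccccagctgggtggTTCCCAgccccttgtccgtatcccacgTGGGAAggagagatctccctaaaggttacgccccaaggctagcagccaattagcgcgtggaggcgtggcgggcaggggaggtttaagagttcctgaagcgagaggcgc
In Hes5 the forward match began 82 bases before the start and the reverse match 226, with 138 bases between them. In Lfng the forward match began 108 bases before the start and the reverse match lay upstream of it, with 21 bases between them. A match on either strand was in 21.6% of 32851 promoters of that length, and at least 2 were in 2.77%. The windows of Notch1, Notch2, Notch3, Id3 and Dner held none, and Hes1 and Sox9 had no entry. The search in genes of the ligand and receptor list was added after values had been seen. A match describes the letters and shows no binding.

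Hes5 was at 80.9, 92.8, 55.5 and 74.7 TPM in NSC 1 to NSC 4, against 1.87, 4.05 and 6.96 TPM as the lowest, median and highest BP value (3.92 ± 0.27). Hes1, the related repressor, was at 42.2, 26.6, 19.7 and 30.8 TPM against 0.98, 1.40 and 1.71 TPM (3.66 ± 0.19, adjusted p = 5.3e-06). Lfng was at 37.7, 24.1, 17.1 and 28.5 TPM against 0.278, 1.196 and 2.32 TPM (3.67 ± 0.29, adjusted p = 2.2e-05). None of these 3 genes overlapped between the sides, and the lowest NSC library was NSC 3 in each.

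Among the receptors, Notch3 was at 23.9, 16.54, 15.3 and 19.3 TPM in NSCs and 1.37 to 2.24 TPM in BPs (2.80 ± 0.15, adjusted p = 5.3e-06). Notch2 was at 33.3, 17, 21.0 and 25.2 TPM against 3.30 to 4.78 TPM (2.28 ± 0.17, adjusted p = 2.2e-05). Notch1 was at 108, 50.8, 68.7 and 68.5 TPM against 16.8 to 25.6 TPM (1.73 ± 0.18, adjusted p = 0.00013). The receptors did not overlap between the sides, NSC 1 was highest for each, and Notch1, with the smallest difference, had the highest level on both sides. Dner, a Notch ligand of neurons, had the largest difference of the list the other way, -0.85 ± 0.28 (adjusted p = 0.074), with overlap. Among the targets, Sox9, a transcription factor of stem cells and glia, was at 63.1, 29.7, 37.6 and 42.2 TPM against 4.86 to 7.06 TPM (2.60 ± 0.19, adjusted p = 1.6e-05). Id3, an inhibitor of helix-loop-helix factors, was at 9.19, 6.39, 6.53 and 6.63 TPM against 0.0809 to 1.49 TPM (2.18 ± 0.24, adjusted p = 0.00015).

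**Figure D3:**
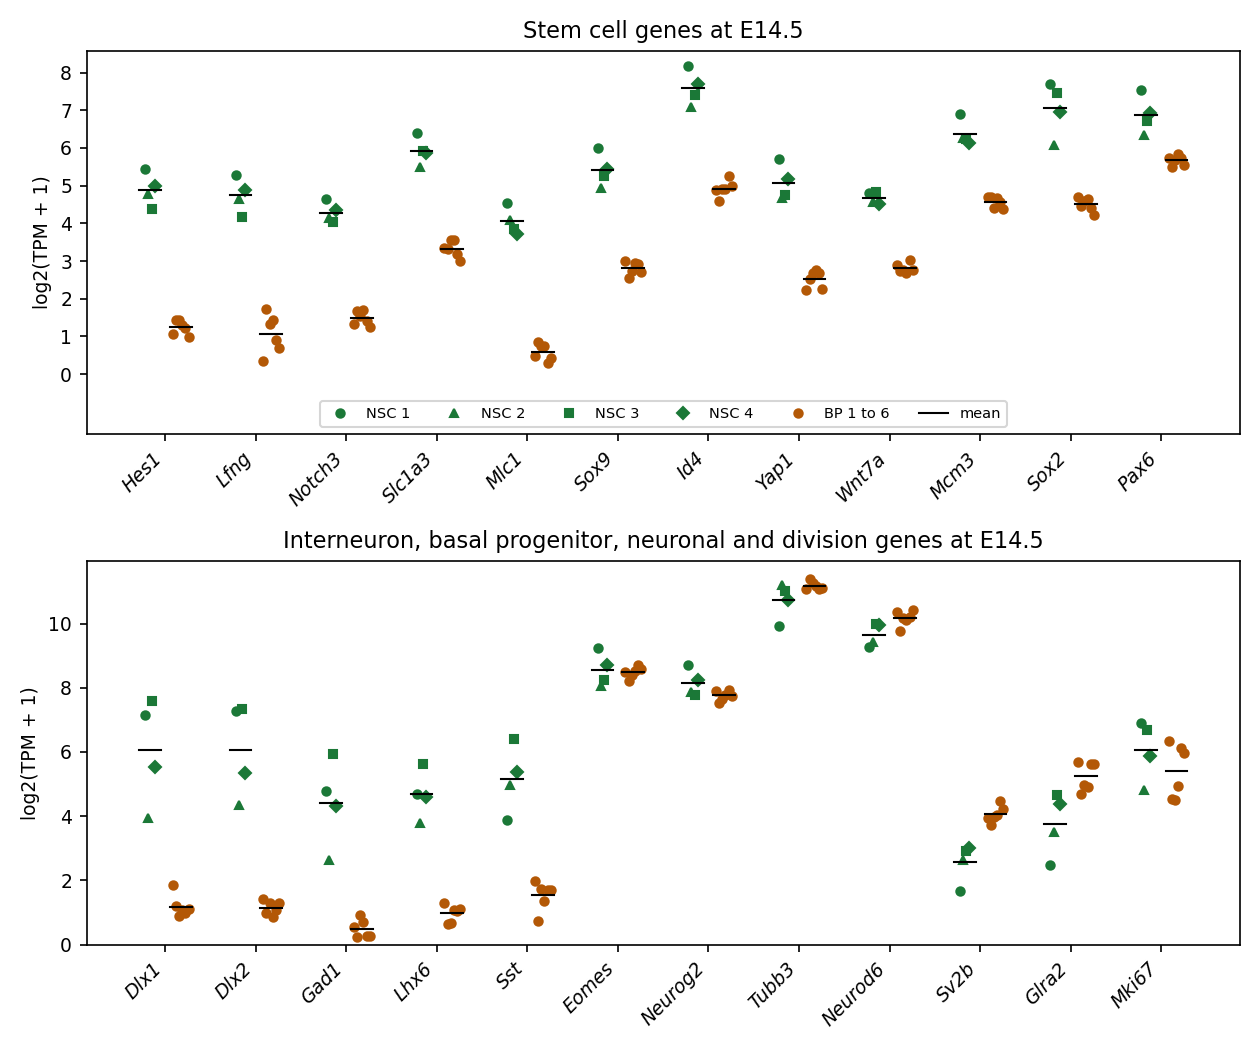
Levels as log2(TPM + 1) of 24 named genes of several roles, with each of the 4 NSC and 6 BP libraries as a point and a bar at the mean of each side. For Hes1, Lfng and Mlc1 no NSC point falls within the BP points (fixed by the filter on low values for Mlc1), while Eomes overlaps.

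Genes of radial glia were higher in NSCs almost throughout the list. Of 24 tested, 21 were called higher in NSCs, 0 in BPs, all 24 had a positive difference and the median was 2.33. Hes1 is in this list and in that of the Notch targets. The list mean was 6.78, 5.89, 6.09 and 6.19 in NSC 1 to NSC 4 and 3.89 to 4.23 in BPs. Slc1a3, the glutamate transporter GLAST, was at 82.6, 44.1, 59.0 and 57.5 TPM against 6.98, 9.09 and 10.8 TPM (2.59 ± 0.17, adjusted p = 1.3e-05). Sox2, a transcription factor of stem cells, was at 207, 66.9, 176 and 123 TPM against 17.7, 21.9 and 25.0 TPM (2.55 ± 0.26, adjusted p = 0.00011). NSC 2 had the least Sox2 and Slc1a3 of the NSC libraries, still above every BP library. Tnc, the matrix protein tenascin C, differed by 2.86 ± 0.18 and Rgcc, a cell cycle regulator, by 3.27 ± 0.22 (both adjusted p = 1.3e-05). Pax6, the dorsal progenitor factor, was at 184.9, 80.5, 105 and 121 TPM against 44.3, 51.2 and 56.1 TPM, without overlap (1.22 ± 0.19, adjusted p = 0.0016). Without NSC 1 the Pax6 difference was 0.9994, just below the size required for a call.

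Many glial genes were also higher in NSCs. Of 21 astrocyte genes tested (25 in the table), 13 were called higher in NSCs, 0 in BPs, with a median of 1.19, and this list shares Slc1a3 and Sox9 with the lists above. Mlc1, a membrane protein of astrocytes, was at 22.2, 16.1, 13.46 and 12.2 TPM against 0.222 to 0.806 TPM (3.47 ± 0.18, adjusted p = 5.3e-06). Mfge8, a secreted protein that aids clearance of dying cells, was at 93.3, 74.98, 48.0 and 54.8 TPM against 2.80 to 9.23 TPM (3.56 ± 0.30). Mt2, a metallothionein, was at 65.8, 59.8, 23.3 and 33.2 TPM against 0.57 to 3.81 TPM (3.77 ± 0.34). None of these overlapped, and NSC 1 was highest for each. For Mlc1, below 1 TPM in every BP library, the filter on low values fixed the lack of overlap. Gfap, the filament of mature astrocytes, did not pass the filter on low values. Slc1a2, another glutamate transporter, had the opposite sign, -1.11 ± 0.39 (adjusted p = 0.091). The count of astrocyte genes higher in BPs was 1 without BP 2, and also without NSC 2, BP 2, BP 3 and BP 4.

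Of 10 oligodendrocyte lineage genes tested (16 in the table), 5 were called higher in NSCs and 0 in BPs, with a median of 0.95. Sox8 was at 22.9, 14.1, 20.9 and 12.1 TPM against 0.763 to 1.14 TPM (3.22 ± 0.18, adjusted p = 5.3e-06). Olig2, which also marks ventral progenitors, was uneven within NSCs, at 24.2, 2.83, 16.8 and 5.15 TPM, against 0.256 to 1.02 TPM in BPs (2.58 ± 0.45, adjusted p = 0.0038). NSC 1 and NSC 3 were high for Olig2, NSC 2 and NSC 4 low. Sox10, which defines committed cells of this lineage, was at most 0.274 TPM in any library.

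Interneuron and ventral forebrain genes led the comparison. Among genes whose mean reached 10 TPM on either side, the 4 largest differences were those of Dlx2, Dlx1, Dlx5 and Gad1. Of 21 tested (24 in the table), 16 were called higher in NSCs, 0 in BPs, with a median of 2.63. The summed TPM of the list was 875, 284, 1298 and 559 in NSC 1 to NSC 4 and 150 to 329 in BPs, so that NSC 2 fell within the BP range. In these sums Zeb2 alone was at 80.1 TPM in NSC 2 and at 106 to 250 TPM in BPs. The mean log2 level of the list did not overlap, at 4.31, 2.80, 5.02 and 3.64 in NSC 1 to NSC 4 against 1.27 to 1.78 in BPs. No defining marker was at 0 in any library. Dlx2, a homeodomain factor of ventral progenitors and interneurons, was at 154, 19.2, 163 and 39.3 TPM against 0.81, 1.28 and 1.67 TPM (4.92 ± 0.52, adjusted p = 0.00013). Dlx1, its neighbour in the genome, was at 142, 14.4, 193 and 45.2 TPM against 0.841, 1.14 and 2.64 TPM (4.88 ± 0.59, adjusted p = 0.00032). NSC 1 and NSC 3 were high, NSC 2 was lowest, and no NSC library overlapped the BPs. The TruSeq v2 kit keeps no strand, so reads of these genes and of antisense transcripts at their loci cannot be told apart. The same order did not hold for every member: Sst, the peptide somatostatin of one interneuron class, was at 13.6, 30.6, 83.7 and 41.0 TPM, lowest in NSC 1, against 0.663 to 2.91 TPM (3.63 ± 0.41, adjusted p = 0.0002).

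Dlx5 differed by 4.07 ± 0.47 and Gad1, an enzyme of GABA synthesis, by 3.93 ± 0.49, with NSC values of 26.7, 5.25, 60.1 and 18.9 TPM for Gad1 against 0.17 to 0.888 TPM. Lhx6, a factor of interneurons from the medial ganglionic eminence, was at 24.9, 12.8, 48.5 and 23.2 TPM against 0.542 to 1.44 TPM (3.70 ± 0.29, adjusted p = 2.3e-05). Slc32a1, the vesicular GABA transporter, differed by 3.52 ± 0.30. Dlx5, Gad1, Lhx6 and Slc32a1 were highest in NSC 3. Nkx2-1, the factor that defines the medial ganglionic eminence, overlapped between the sides, at 33.0, 0.83, 20.4 and 2.09 TPM in NSC 1 to NSC 4 and 0.215 to 2.10 TPM in BPs. Of the 21 genes, 11 had an SD of at least 1 (log2) within NSCs and 0 within BPs. The count of 16 lay between 15 and 17 when any 1 library was left out and was 16 without NSC 2, BP 2, BP 3 and BP 4. What part cells from outside the dorsal cortex have in these levels was not tested. Zeb2, expressed in neurons of several kinds, had the opposite sign, -0.25 ± 0.31 (adjusted p = 0.67), and its sign changed with library weights, with the Y-linked covariate, with the transcript length covariate and without NSC 2.

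**Figure D4:**
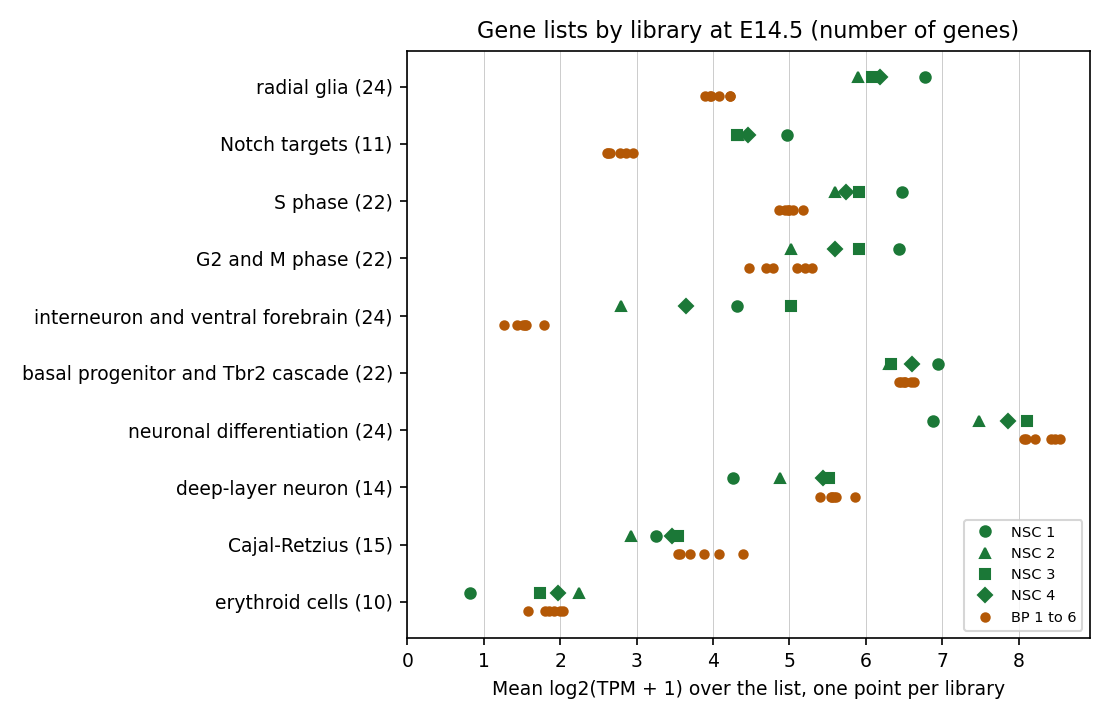
Mean log2(TPM + 1) of gene lists in each of the 4 NSC and 6 BP libraries at E14.5. The interneuron list spreads from 2.80 to 5.02 between NSC libraries and from 1.27 to 1.78 between BP libraries, while the basal progenitor list overlaps.

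Genes of replication and of mitosis all had a higher mean in NSCs, and a part of them was called. All 22 S phase genes had a positive difference, 8 were called higher in NSCs and 0 in BPs, with a median of 0.95. Mcm3, a subunit of the replicative helicase, was at 118, 76.0, 73.8 and 69.0 TPM against 19.9, 23.7 and 24.9 TPM (1.81 ± 0.15, adjusted p = 2.8e-05). Cdt1, which loads that helicase, was at 42.8, 28.1, 31.9 and 30.6 TPM against 8.31, 9.48 and 11.6 TPM (1.67 ± 0.14, adjusted p = 3.2e-05). Neither overlapped, and NSC 1 was highest for both. All 22 genes of G2 and M phase had a positive difference too, with 4 called and a median of 0.82. Cdk1, the kinase of mitotic entry, was at 134, 84.2, 83.3 and 69.8 TPM against 37.0, 42.1 and 48.0 TPM (1.09 ± 0.16, adjusted p = 0.0012). Mki67, a marker of cycling cells, was at 119, 27.3, 103 and 57.1 TPM against 21.5, 45.3 and 81.0 TPM, with overlap (0.67 ± 0.49, adjusted p = 0.43). The Mki67 difference was 0.40 without NSC 1 and 1.09 without NSC 2. Without NSC 1 the calls were 5 for S phase and 0 for G2 and M phase, and without NSC 2 they were 12 and 12. Without BP 3 the G2 and M phase count was 2, and without NSC 2, BP 2, BP 3 and BP 4 the counts were 10 and 6. With a pseudocount of 5 the counts were 5 for S phase and 2 for G2 and M phase.

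Of 16 G1 cyclins and inhibitors, 2 were called higher in NSCs and 0 in BPs, with a median of 0.27. Cdk2, the kinase of S phase entry, was at 65.1, 34.1, 34.9 and 32.0 TPM against 13.4 to 16.3 TPM (1.42 ± 0.18, adjusted p = 0.00044). Ccnd2, a D-type cyclin, was at 397, 128, 303 and 207 TPM against 92.8 to 131 TPM (1.13 ± 0.26, adjusted p = 0.016). Ccnd2 of NSC 2 fell within the BP range, and the other 3 NSC libraries were above it. The count was 1 without NSC 1, 5 without NSC 2, 4 without NSC 2, BP 2, BP 3 and BP 4 and 4 with the replicate block.

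Wnt, BMP and YAP genes were partly higher in NSCs. Of 18 Wnt ligands and response genes tested (22 in the table), 8 were called higher in NSCs and 0 in BPs (median 0.72). The Wnt count was 4 with a pseudocount of 5. Wnt7a, a ligand of cortical progenitors, was at 26.8, 22.6, 27.6 and 22.02 TPM against 5.47 to 7.14 TPM (1.87 ± 0.12, adjusted p = 1.3e-05), without overlap. The ligand Wnt7b had the opposite sign, at 82.2, 244, 195 and 191 TPM against 234 to 313 TPM (-0.69 ± 0.25, adjusted p = 0.11), with NSC 1 far below the rest and a difference of -0.36 without it. Of 18 TGF-beta and BMP response genes tested (22 in the table), 7 were called higher in NSCs and 0 in BPs (median 0.48). This list shares Id3 with the Notch targets, and its count was 4 with a pseudocount of 5. Id4, a helix-loop-helix inhibitor, was at 290, 136, 170 and 206 TPM against 23.0 to 36.9 TPM (2.67 ± 0.19, adjusted p = 1.5e-05), while its relative Id2 was at 151, 319, 291 and 301 TPM against 312 to 448 TPM (-0.57 ± 0.20, adjusted p = 0.096). Id4 did not overlap, and Id2 overlapped through NSC 2, with a difference of -0.32 without NSC 1.

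Of 13 YAP and TEAD genes tested (15 in the table), 6 were called higher in NSCs and 0 in BPs (median 0.80). The co-activator Yap1 was at 50.8, 24.5, 26.0 and 35.3 TPM against 3.71 to 5.80 TPM (2.55 ± 0.21, adjusted p = 2.4e-05), and its relative Wwtr1 (TAZ) at 37.9, 14.3, 18.2 and 24.4 TPM against 2.06 to 4.19 TPM (2.64 ± 0.25). Cyr61, a secreted protein whose gene is a known YAP target, was at 52.4, 22.2, 18.9 and 27.6 TPM against 0.334 to 2.04 TPM (3.77 ± 0.31, adjusted p = 2.4e-05). These 3 did not overlap, and all were highest in NSC 1. The upstream kinase Lats1 had a difference of -0.02 ± 0.31. Of 14 immediate early genes tested (19 in the table), which sorting and dissociation are known to induce, 3 were called higher in NSCs, namely Jun (1.49 ± 0.17), Fos (1.70 ± 0.34) and Fosb (1.34 ± 0.31), with a list median of 0.12. Fos was at 25.8, 6.77, 8.93 and 12.02 TPM in NSCs against 1.53 to 4.497 TPM, without overlap and highest in NSC 1. The Fos call was lost with the replicate block. The Fosb call was lost without NSC 1 (0.93) and in 6 of 11 other settings, among them without NSC 2, BP 2, BP 3 and BP 4. What part dissociation has in these levels was not tested.

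No gene of the basal progenitor programme reached a call with all 10 libraries. Of 22 genes of the Tbr2 cascade, 0 were called by limma in either direction, with a median of 0.05 and list means of 6.95, 6.30, 6.33 and 6.61 in NSC 1 to NSC 4 against 6.43, 6.50 and 6.64 in BPs. At an unadjusted p under 0.05 there were 5 higher in NSCs and 3 higher in BPs, and the calls were 1 higher in NSCs without NSC 2, BP 2, BP 3 and BP 4, and 1 higher in BPs with the Y-linked covariate. The median was -0.10 without NSC 1, -0.02 without BP 1 and -0.05 with the Y-linked covariate. Neurog2, the proneural factor upstream of Eomes, was at 418, 235, 217 and 303 TPM against 185.2, 217 and 244 TPM, with overlap (0.39 ± 0.17, adjusted p = 0.17; 0.21 without NSC 1). An adjusted p under 0.05 below the size for a call was found for 3 members, which are named after their values were seen. Nhlh1 (-0.87, adjusted p = 0.005) and Rprm (-0.57, adjusted p = 0.019) were higher in BPs, and the chemokine receptor Cxcr4 (0.83, adjusted p = 0.00042) was higher in NSCs. No match to CAGATG, a proneural motif found in 14.4% of promoters, was in the windows of Eomes and Neurog2.

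Neuronal genes were lower in NSCs in sign, and few had the size for a call. All 24 genes of neuronal differentiation had a negative difference (median -0.64), 7 had an adjusted p under 0.05 and 1 of these had the size for a call. At an unadjusted p under 0.05 by limma there were 18 higher in BPs and 0 higher in NSCs, with no share of all genes counted at that level. For 9 of the 24 every BP library was above every NSC library, beside 4.4% of all genes. List means were 6.88, 7.49, 8.11 and 7.86 in NSC 1 to NSC 4 and 8.08, 8.32 and 8.55 in BPs, so that NSC 3 fell within the BP range. The called gene was Nefl, a neurofilament, at 1.15, 2.11, 5.90 and 3.78 TPM against 5.71, 6.90 and 9.36 TPM (-1.06 ± 0.28, adjusted p = 0.034), with NSC 3 overlapping. The count of called genes was 6 without NSC 3, 3 without NSC 4, 2 without BP 2 and 0 without NSC 1, NSC 2, BP 1, BP 5 or BP 6 in turn. Nefl itself lost its call in 7 of 10 reduced sets, those 5 and without BP 3 or BP 4, and in 8 of 12 other settings. Neurod6, a factor of young glutamatergic neurons, was at 618, 681, 1010 and 998 TPM against 874, 1167 and 1379 TPM (-0.52 ± 0.18, adjusted p = 0.085). Bcl11b, a factor of deep-layer neurons, was at 89.2, 113, 275 and 234 TPM against 174.9, 265 and 339 TPM (-0.65 ± 0.33, adjusted p = 0.23; -0.37 without NSC 1). For both, NSC 1 and NSC 2 were below all BPs and NSC 3 and NSC 4 within their range. Of 14 deep-layer and 15 upper-layer genes 0 were called by limma, with medians of -0.76 and -0.23. At an unadjusted p under 0.05, 6 deep-layer genes and 3 upper-layer genes were higher in BPs, and 0 and 1 in NSCs. The deep-layer count higher in BPs was 1 without NSC 2, BP 2, BP 3 or BP 4 in turn and 2 without NSC 3 or NSC 4, and the upper-layer count was 1 without NSC 3. The upper-layer median changed sign with library weights (0.07) and with the Y-linked covariate (0.03), and the deep-layer median was -0.28 without NSC 1.

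The hypoxia, axon guidance and early temporal lists held 1 call each, shares of 5.88%, 3.70% and 11.1% beside 3.78% of all genes tested. Of 17 hypoxia and glycolysis genes, 16 had a positive difference, 9 an adjusted p under 0.05 and 1 the size for a call, with a median of 0.54. That gene was Egln3, an oxygen-sensing hydroxylase, at 10.3, 10.1, 6.47 and 9.34 TPM in NSCs against 0.922 to 2.01 TPM in BPs (2.16 ± 0.17, adjusted p = 2.2e-05), without overlap. The hypoxia count was 2 without NSC 3. Of 27 axon guidance genes, 19 had a negative difference (median -0.33) and 1 was called, the netrin Ntn1, at 7.70, 2.56, 11.5 and 3.74 TPM against 0.681 to 1.19 TPM (1.79 ± 0.30, adjusted p = 0.0028). Ntn1 was high in NSC 1 and NSC 3, as the Dlx genes were, and lost its call with a pseudocount of 5 (0.88). The axon guidance median was -0.11 without NSC 2, and the count higher in BPs was 1 without NSC 3 or BP 2. Of 9 early temporal progenitor genes tested (11 in the table) 5 had a positive difference (median 0.034) and 1 was called, Hmga2, a chromatin protein of young stem cells, at 13.48, 5.45, 10.3 and 9.72 TPM against 1.42 to 2.62 TPM (1.83 ± 0.22, adjusted p = 0.00029). The early temporal median was -0.070 without NSC 1, -0.032 without NSC 3 or BP 2, and 0.198 without NSC 2. Without NSC 2, BP 2, BP 3 and BP 4 the calls higher in NSCs and in BPs were 1 and 1 for hypoxia, 1 and 2 for axon guidance and 2 and 1 for the early temporal list.

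The 29 genes higher in BPs were few and mostly not steady. Sv2b, a synaptic vesicle protein, was at 2.21, 5.27, 6.58 and 6.99 TPM in NSC 1 to NSC 4 against 12.3, 15 and 21.4 TPM (-1.50 ± 0.25, adjusted p = 0.0027). It did not overlap, and its call held with any 1 library left out and under each other setting tried. Gpr26, an orphan receptor, was at 2.27, 2.89, 6.46 and 4.58 TPM against 7.03, 11.9 and 18.99 TPM (-1.42 ± 0.32, adjusted p = 0.015) and Adcyap1, the neuropeptide PACAP, at 2.98, 3.54, 3.94 and 6.01 TPM against 5.62, 10.2 and 16.3 TPM (-1.15 ± 0.25, adjusted p = 0.013). Gpr26 did not overlap, Adcyap1 overlapped through NSC 4, and both calls held with any 1 library left out. Of 12 other settings, the Gpr26 call was lost in 2 (a pseudocount of 5 and the replicate block) and the Adcyap1 call in 5, which were those 2, library weights, the Y-linked covariate and the set without NSC 2, BP 2, BP 3 and BP 4. Glra2, a glycine receptor subunit, was at 4.58, 10.2, 24.0 and 19.8 TPM against 24.6, 39.2 and 50.1 TPM (-1.50 ± 0.39, adjusted p = 0.031). It did not overlap by a narrow margin, and its call was lost in 5 of 10 reduced sets, those without NSC 1, NSC 2, BP 1, BP 5 or BP 6, and in 5 of 12 other settings.

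Sema6d, a guidance molecule, was at 57.4, 49.9, 95.5 and 97.1 TPM against 102, 156 and 207 TPM (-1.04 ± 0.25, adjusted p = 0.02), and its call was lost without the same 5 libraries in turn and in 5 of 12 other settings. Crtac1, at 2.85, 13.4, 12.9 and 12.9 TPM against 18.5 to 26.6 TPM, had a difference of -1.21 ± 0.34 (adjusted p = 0.042), and of -0.74 without NSC 1. Its call was lost in 8 of 10 reduced sets (without NSC 1, NSC 4 or any BP library) and in 7 of 12 other settings. Adcy1, an adenylate cyclase (-1.05), and Elmod1 (-1.04, adjusted p = 0.0497) were at -0.67 and -0.65 without NSC 1, and lost their calls in 8 and 9 of 10 reduced sets. Ppp1r14c, Ppp2r2c, Shisa6 and Nrg3 had differences of -1.34, -1.10, -1.10 and -1.06, and each lost its call without NSC 1. Ppp2r2c lost it in that reduced set alone, Ppp1r14c in 9 of 10 and Shisa6 and Nrg3 in 7 of 10, and in the 12 other settings Ppp2r2c lost it in 5 and the other 3 genes in 6 each. NSC 1 was the lowest NSC library for 20 of the 29 genes. Of 14 named genes higher in BPs, 3 kept the call with any 1 library left out, against 52 of 61 named genes higher in NSCs. The call held in every other setting for 1 of the 14 and 48 of the 61. Named genes were mostly picked for large differences or small adjusted p, which favours steady calls. These shares therefore do not stand for all called genes. Of all 480 genes called higher in NSCs and 29 in BPs, 361 and 10 kept the call without NSC 1. With a pseudocount of 5, 216 and 3 kept it.

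Markers of some other cell types differed between the sides, and their part in the other differences was not tested. Of all genes tested 3.78% were called, and 9.88% and 4.4% had every NSC library above or below every BP library. Endothelial Pecam1, Cdh5, Kdr and Cldn5 were at most 1.17 TPM in any library, and microglial C1qa and C1qb at most 0.315 TPM. Microglial Csf1r was at 1.87 to 2.08 TPM in NSCs and 1.82 to 2.37 TPM in BPs, and Cx3cr1 reached 1.07 TPM. Pdgfrb, a receptor of pericytes, was at 1.81, 1.38, 2.11 and 1.64 TPM in NSCs against 0.269 to 0.468 TPM in BPs, without overlap (0.98 ± 0.11, adjusted p = 0.00015), just below the size for a call. The filter fixed the lack of overlap of Pdgfrb, since no BP library reached 1 TPM. Of 15 genes in each of these lists, 2 were tested and 0 called by limma (at an unadjusted p under 0.05, Pdgfrb alone and 0 microglial genes), with summed TPM of 10.1 to 13.2 (endothelium and pericytes) in NSCs against 6.81 to 10.1 in BPs and of 6.38 to 14.3 (microglia) against 5.34 to 8.24. The endothelial count was 1 without NSC 2, and also without NSC 2, BP 2, BP 3 and BP 4. Erythroid genes summed to 9.39, 85.6, 42.8 and 58.5 TPM in NSC 1 to NSC 4 and to 37.4 to 76.9 TPM in BPs, so NSC 1 had the least. Meningeal genes summed to 19.1 to 25.9 TPM in NSCs against 8.25 to 18.2 TPM in BPs, without overlap, with 1 of 6 tested called (Lgals1, 1.42 ± 0.24) and 2 without NSC 2, NSC 3, BP 4 or BP 5 in turn or without NSC 2, BP 2, BP 3 and BP 4. The choroid plexus gene Ttr was uneven, at 4.36, 16.2, 115.5 and 37.8 TPM in NSCs and 0 to 76.7 TPM in BPs. Of 6 choroid plexus genes tested 1 was called and 2 did not overlap. The called gene, Otx2, which also marks the cortical hem, was at 5.64, 2.95, 5.82 and 2.83 TPM against 0.873 to 2.54 TPM (1.01 ± 0.26, adjusted p = 0.029), and its call was lost in 5 of 10 reduced sets (without NSC 1, NSC 3, BP 1, BP 2 or BP 3) and in 7 of 11 other settings. The other was Folr1, a folate receptor, at 1.17 to 1.82 TPM in NSCs against 0.133 to 1.04 TPM in BPs (0.80 ± 0.18, adjusted p = 0.018). Cajal-Retzius genes, which mark early neurons of the cortical surface that include cells from the hem, summed to 206 to 298 TPM in NSCs and 343 to 560 TPM in BPs, without overlap. Of 15 such genes 13 had a negative difference. At an unadjusted p under 0.05 by limma 11 were higher in BPs and 0 in NSCs, with no share of all genes counted at that level. At an adjusted p under 0.05 and any size 2 were higher in BPs, beside 338 of 13478 genes tested. Of the 15, 1 was called, Ebf2, at 3.38, 1.41, 2.32 and 3.04 TPM against 3.90, 6.16 and 12.1 TPM (-1.10 ± 0.28, adjusted p = 0.03), higher in BPs without overlap. That count was 0 without NSC 3, NSC 4, BP 5 or BP 6 in turn, 2 without BP 2 and 4 without NSC 2, BP 2, BP 3 and BP 4. Ebf2 itself lost its call in 6 of 10 reduced sets, those 4 and without NSC 2 or BP 1, and in 6 of 12 other settings.

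The spread between libraries was larger in NSCs for most genes. The median SD of log2(TPM + 1) was 0.299 in NSCs (n = 4) and 0.200 in BPs (n = 6), and 76.1% of the genes had the larger SD in NSCs. An SD of at least 1 was reached by 189 genes in NSCs and by 35 in BPs, with 21 in both. Among the 189, the highest library was NSC 3 for 70, NSC 2 for 62, NSC 1 for 48 and NSC 4 for 9. Of the 480 genes higher in NSCs, NSC 1 was the highest NSC library for 382, and NSC 2 the lowest for 229 and NSC 3 for 178. Without NSC 3 the count of 189 was 303 and without NSC 4 it was 367.

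The genes of largest spread fell into a few patterns. Xist and Eif2s3y followed the split of the sex-linked transcripts. The predicted gene Gm26992 was at 0, 0.21, 66.2 and 4.70 TPM in NSC 1 to NSC 4 and at 0 in BP 2 and BP 3, high in the libraries with Xist. Gm26822 was at 1.68, 0.819, 159 and 132 TPM in NSCs and 4.47 to 20.6 TPM in BPs. It was high in NSC 3 and NSC 4 alone. The predicted genes Gm10715, Gm10717, Gm10720, Gm10721, Gm10800 and Gm11168 were high and low in the same libraries. Gm10800 was at 2144, 426, 43.3 and 1198 TPM in NSC 1 to NSC 4 and at 340, 4306, 199, 11329, 223 and 1416 TPM in BP 1 to BP 6. BP 4 and BP 2 were highest and NSC 3 lowest. The sequences of these predicted genes were not compared, so whether short reads can tell them apart was not tested.

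The difference between the sides at E14.5 was then tested against the same difference at E13.5 and E15.5, each with 3 libraries a side. Of 13895 genes tested, 1 had a larger difference at E14.5 than the mean of the neighbouring days (0.0072%) and 9 a smaller one (0.0648%), at an adjusted p under 0.05 and a size of at least 1. Without adjustment 146 genes had a p under 0.05 at that size. No member of the gene lists was called. Sybu, a linker of axonal transport, was at 8.39, 22.8, 24.7 and 23.7 TPM in NSC 1 to NSC 4 and 23.7 to 34.0 TPM in BPs at E14.5. BPs had 8.20 to 9.27 TPM at E13.5 and 3.36 to 4.71 TPM at E15.5, while NSCs had 7.04 to 11.1 and 21.4 to 52.2 TPM. The Sybu difference was 0.01, -0.54 and 2.93 on the 3 days (E14.5 minus the mean of its neighbours -2.01 ± 0.34, adjusted p = 0.034), and BPs were higher at E14.5 than on either neighbouring day.

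Lpl, a lipoprotein lipase, and Adamts18, a secreted protease, had the same shape in BPs. Lpl was at 10.8 to 29.8 TPM in BPs at E14.5 against 4.74 to 6.81 and 1.66 to 3.24 TPM on the days before and after (-1.62 ± 0.29, adjusted p = 0.035). Adamts18 was at 16.4 to 25.6 TPM against 5.27 to 7.34 and 5.32 to 5.55 TPM (-1.41 ± 0.23, adjusted p = 0.034). BP libraries of E14.5 did not overlap those of the other days for either gene. Cap2, which binds actin, differed by -1.11 ± 0.21 (adjusted p = 0.049). The one larger difference was Hist1h1e, a linker histone, at 5.33, 9.80, 8.68 and 6.87 TPM in NSCs against 0.922 to 2.67 TPM in BPs at E14.5, with differences of 0.16, 1.72 and 0.11 on the 3 days (1.58 ± 0.31, adjusted p = 0.049). Hist1h1e has a mean below the level set for named genes and is named after its values were seen, as the only gene of its direction. These calls were not steady, since 1 library left out of 22 ended the call of Sybu in 11 cases, Lpl in 12, Adamts18 in 8, Cap2 in 20 and Hist1h1e in 18. Without NSC 2, BP 2, BP 3 and BP 4 of E14.5 the counts were 0 and 1, and that 1 gene was not among the 9. The Dlx genes, at 13.9 to 80.7 TPM (Dlx1) in NSCs at E13.5 and 20.7 to 29.7 TPM at E15.5, did not pass this test (Dlx2 1.71 ± 0.74, adjusted p = 0.57).

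**Figure D5:**
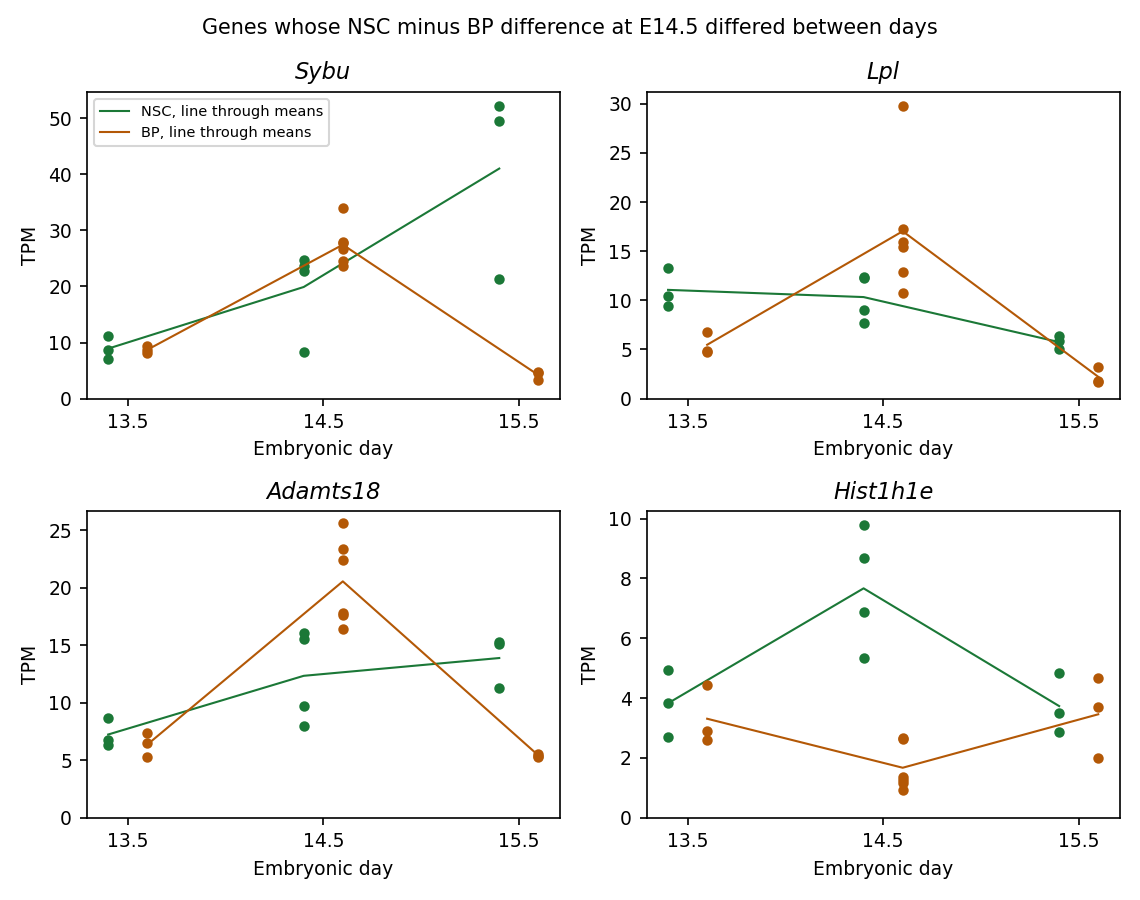
TPM of Sybu, Lpl, Adamts18 and Hist1h1e in each NSC and BP library at E13.5, E14.5 and E15.5 (3, 4 and 3 NSC libraries and 3, 6 and 3 BP libraries), with lines through the means. BP points of Sybu, Lpl and Adamts18 at E14.5 lie above those of both other days, and the gap between the sides for Hist1h1e is widest at E14.5.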

How the data were processed

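RNA was measured in sorted cells with the TruSeq RNA v2 kit and single 50 base reads, per the labels' protocols. The submitters' processing notes name kallisto 0.43.0 and the builds GRCm38.p2 and mm10. Each deposited value is a TPM made by the authors, and no counts were used. Groups come from the labels.

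Here log2(TPM + 1) was fitted with limma 3.58.1 (R 4.3.3; eBayes with trend) on genes that reached 1 TPM in 4 or more libraries of the fit, and the scripts were tested on simulated data. The contrast between days used 22 libraries. Members, gene lists and tests were chosen with earlier results of these data known. Named are the 12 genes of largest difference in each direction and a group mean of 10 TPM or more, for each list described up to 4 called members (smallest adjusted p first) and the member farthest the other way, a fixed set of 13 genes, the 6 of largest SD in each group and the 4 of largest difference between days in each direction. Not all of them are described. Replicate numbers were checked for pairing: deviations of same-numbered libraries correlated at 0.16, 0.79, -0.32 and -0.04, and the sides come from different reporter lines, so numbers were not used as pairs. Depth is unknown, so errors come from the spread between libraries.

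Alternatives were other pseudocounts, filters and scalings, library weights, all 63 libraries, a Y-linked covariate, a replicate block and leaving out each library. Added after seeing the data were a transcript length covariate, leaving out 4 libraries together, and keeping the same genes tested in reduced sets. Promoter windows are from RefSeq.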

Additional observations from a re-analysis of the deposited data

Results flagged for a closer look

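Dixon's test was run on 278 groups of values, taken per side from each named gene and from the means of each gene list. Xist, Eif2s3y and Gm26992 were left out. In 11 groups, all of named genes, 1 library lay far from the others of its side (a gap above the 95% critical value). That is 3.96%, and chance gives about 1 in 20. In NSCs the libraries were NSC 1 for Crtac1 (2.85 TPM, low), Id3 (9.19 TPM, high), Cdk2 (65.1 TPM, high), Id2 (151 TPM, low) and Sybu (8.39 TPM, low), and NSC 3 for Fzd9 (17.1 TPM, low) and Sox3 (50.9 TPM, low). In BPs they were BP 1 for Dlx1 (2.64 TPM, high), BP 5 for Rgcc (0.451 TPM, low), BP 2 for Cdk2 (16.3 TPM, high) and BP 6 for Ski (22.4 TPM, low).

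The difference between the sides at E14.5 differed from that of the neighbouring days, by the limma contrast of the difference itself, for Sybu (-2.01), Lpl (-1.62), Adamts18 (-1.41), Cap2 (-1.11) and Hist1h1e (1.58), on the log2 scale.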

How the results depend on the processing

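The count of genes higher in NSCs (480) was 216 with a pseudocount of 5 and 292 with a mean of at least 5 TPM. It stayed within 1.5 times under the other settings and was 367 to 640 with 1 library left out. The count higher in BPs (29) was 53 and 5 with pseudocounts of 0.1 and 5, 15 with no low-value filter, 58 with quantile scaling, 82 with library weights, 54 with all 63 libraries and 5 with the Y-linked covariate. It was 91 without NSC 2, BP 2, BP 3 and BP 4 and 7 to 95 with 1 library left out (7 without BP 5 or BP 6, 11 without BP 1, 44 without NSC 2, 95 without NSC 3). With reduced sets filtered anew the ranges were 312 to 574 and 7 to 84, with fewer genes tested. The share of called genes that were higher in NSCs was 94.3%, and 84.2% without NSC 3. With a replicate block the counts were 490 and 10, of which 435 and 6 were among the main calls, and the block gave 13 larger and 7 smaller differences between days. The numbers pair no samples.

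Differences between days (1 larger, 9 smaller) numbered 0 and 4 with a pseudocount of 5, 0 and 6 with no low-value filter, 0 and 5 with a mean of at least 5 TPM, 4 larger with quantile scaling and 2 larger with median-of-ratios scaling. They numbered 54 and 64 with library weights, 2 and 5 with the Y-linked covariate, 12 and 24 with the transcript length covariate, 24 smaller with all 63 libraries and 0 and 1 (a gene outside the 9) without the 4 libraries. With 1 library left out they were 0 to 8 and 1 to 15. The smaller count was 15 without NSC 1 of E15.5 and 1 without NSC 3 of E13.5 or of E15.5, the larger count was 8 without BP 2 of E15.5, and most other libraries moved one of the counts by over 1.5 times as well. Genes with an SD of at least 1 (189 in NSCs, 35 in BPs) were 468 and 122 with a pseudocount of 0.1 and 71 and 21 with 5. With 1 library left out the BP count was 31 to 43, and the NSC count was 303 without NSC 3, 367 without NSC 4 and, at its lowest, 1.4e+02 (2 digits given) without NSC 1.

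Signs changed for 3 named genes with small differences. Lats1 (-0.02) was 0.16 with library weights, 0.17 with the Y-linked covariate, 0.17 with the replicate block, 0.31 with the length covariate, 0.26 without NSC 2, 0.085 without BP 1, 0.068 without BP 5 and 0.045 without BP 6, and lay between -0.17 and 0.26 with 1 library left out. Zeb2 was 0.16 with library weights, 0.070 with the Y-linked covariate, 0.11 with the length covariate and 0.0031 without NSC 2, with a range of -0.47 to 0.0031 with 1 library left out. Eomes was -0.15 without NSC 1, within a range of -0.15 to 0.24. The causes were not tested. No read counts were analysed here, so no counting error or detection floor can be given.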
